A study of Mus musculus with 43 samples.

Results

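The cholesterol synthesis genes described here, 8 in number (Hmgcs1, Sqle, Lss, Idi1, Srebf2, Insig1, Cyp51 and Fdft1), were followed across diet and drug dose in epididymal white adipose tissue, a visceral fat depot of the mouse. They were chosen by name as genes under the transcription factor SREBP2, and all 8 were found among the 56748 genes of the deposited tables. RNA-seq had been run on 43 libraries from male mice in 5 groups. The SD group (7 libraries) received a standard diet with 10% of energy as fat, and the HFD group (10 libraries) a diet with 60% fat. The 3 other groups received the 60% fat diet with SZ-A, the alkaloid fraction of Ramulus Mori (Sangzhi, mulberry twig), at 200 mg/kg/day (9 libraries), 400 mg/kg/day (8 libraries) or 600 mg/kg/day (9 libraries). HFD was therefore the control for each dose and also the test group of the diet comparison, so that the 4 comparisons share its 10 libraries. The sources used here give no strain, age, genotype or length of treatment, and no animals are named behind the replicates. P-values therefore measure the spread between libraries, which may be partly technical.

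Cells make cholesterol from acetyl-CoA through mevalonate, farnesyl diphosphate, squalene and lanosterol. When the membranes of the endoplasmic reticulum are poor in sterol, the escort protein SCAP carries SREBP2, the product of Srebf2, to the Golgi, where it is cut so that it can enter the nucleus and switch on nearly every enzyme of the pathway, lipoprotein uptake and its own gene. INSIG proteins hold SCAP back when sterol is plentiful, and Insig1 is itself a target of the factor. Adipocytes hold a large store of free cholesterol in the lipid droplet surface and take up much of it from lipoproteins. Macrophages, which gather in fat under a high-fat diet, also carry the pathway.

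Of the members, Srebf2 and Insig1 encode regulators. Hmgcs1 (HMG-CoA synthase) and Idi1 (isopentenyl diphosphate isomerase) belong to the mevalonate arm. Fdft1 (squalene synthase), Sqle (squalene epoxidase), Lss (lanosterol synthase) and Cyp51 (lanosterol 14-alpha-demethylase) carry the pathway on to sterols. Promoters were examined because the members share a regulator, and 3 are shown. Among the member promoters found, only that of Hmgcs1 held an exact match to the core of a sterol regulatory element. Srebf2 encodes the factor, and Cyp51 is a sterol enzyme whose level differed with diet and dose below. The sequences are the 250 bases before the start site in RefSeq on GRCm38.p6, read along the transcript, at chr13:119690101-119690350 (plus strand), chr15:82147019-82147268 (plus strand) and chr5:4104698-4104947 (minus strand). Capitals mark the sterol element core TCACNCCAC and the NF-Y box CCAAT, which reads ATTGG on the opposite strand.
Hmgcs1: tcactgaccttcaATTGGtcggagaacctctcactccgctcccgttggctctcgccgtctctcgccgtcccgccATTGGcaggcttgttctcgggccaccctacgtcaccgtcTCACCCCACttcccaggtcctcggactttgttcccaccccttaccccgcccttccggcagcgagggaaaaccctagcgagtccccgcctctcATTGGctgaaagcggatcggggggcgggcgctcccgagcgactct
Srebf2: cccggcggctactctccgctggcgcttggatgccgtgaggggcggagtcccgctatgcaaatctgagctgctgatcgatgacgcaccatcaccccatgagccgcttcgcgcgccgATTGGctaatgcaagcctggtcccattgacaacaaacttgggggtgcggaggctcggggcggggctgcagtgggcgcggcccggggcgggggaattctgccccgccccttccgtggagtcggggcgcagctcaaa
Cyp51: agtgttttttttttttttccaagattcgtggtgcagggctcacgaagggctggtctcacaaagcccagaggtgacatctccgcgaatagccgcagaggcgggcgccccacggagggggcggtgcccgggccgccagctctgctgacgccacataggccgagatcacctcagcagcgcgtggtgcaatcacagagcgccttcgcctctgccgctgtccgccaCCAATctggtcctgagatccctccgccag

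A promoter entry was found for 6 of the 8 members, all but Sqle and Fdft1. The sterol element core, searched on both strands, was present in 1 of those 6 promoters, Hmgcs1, with its first base 137 bases before the start, and in 1.05% of 32851 mouse promoters of the same length. The NF-Y box, bound by a factor known to act beside SREBP, was present in 6 of 6 against 33.8% of all promoters. The Sp1 box GGGCGG, often found with it, was in 6 of 6 against 32.7%. The E-box CACGTG was in 1 of 6, Insig1, against 6.02%. Among 13 other enzymes of the pathway with an entry, 0 held the sterol element core, 12 the NF-Y box, 11 the Sp1 box and 3 the E-box. No pair of matches overlapped in the member promoters, and a match describes the letters only. Only exact matches were counted, so a promoter without a match may still hold a variant of the element.

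Total counts were between 32716294 and 44259619 reads per library, and each member drew at least 65 reads in every library (the lowest count was one of Idi1). The libraries did not all stand alike. By the share of counts from small noncoding RNA genes they divided at the largest gap into 2 sets, 22 libraries at 0.00231% to 0.00544% (set 1) and 21 at 0.00744% to 0.0191% (set 2), and each group had libraries in both. Set 1 held libraries 1 to 5 of each high-fat group but only libraries 1 and 2 of SD, so SD (2 of 7 in set 1) and HFD (5 of 10) are not balanced over the sets, and the fit has no term for them. With such a term the diet count was again 5 of 8 members. The labels name no batch, and the sets are a property of the values. CPM is a gene's count scaled to the normalised library total. For the next count of genes it was taken over the raw total, with a gene's median set to at least 0.05 CPM. In 4 libraries between 185 and 752 genes at 10 CPM or more stood over 20 times above their median of all libraries, against at most 58 in any other. SD library 4 and SZ-A 600 library 6 carried ciliated epithelium genes, SZ-A 400 library 6 epididymal duct genes, and SZ-A 400 library 3 squamous and sebaceous genes. Results that rest on these 4 libraries are given with and without them, and 39 libraries remain without them. Adipocyte markers summed to between 3846 and 72250 CPM per library, so adipocyte genes were counted in each. The lowest sum was that of SZ-A 400 library 6, and the next lowest was 14241 CPM in SD library 4. In SZ-A 400 library 6 smooth muscle markers summed to 18886 CPM, more than its adipocyte markers. Levels in bulk tissue cannot tell fewer cells of a type from less RNA per cell.

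**Figure D1:**
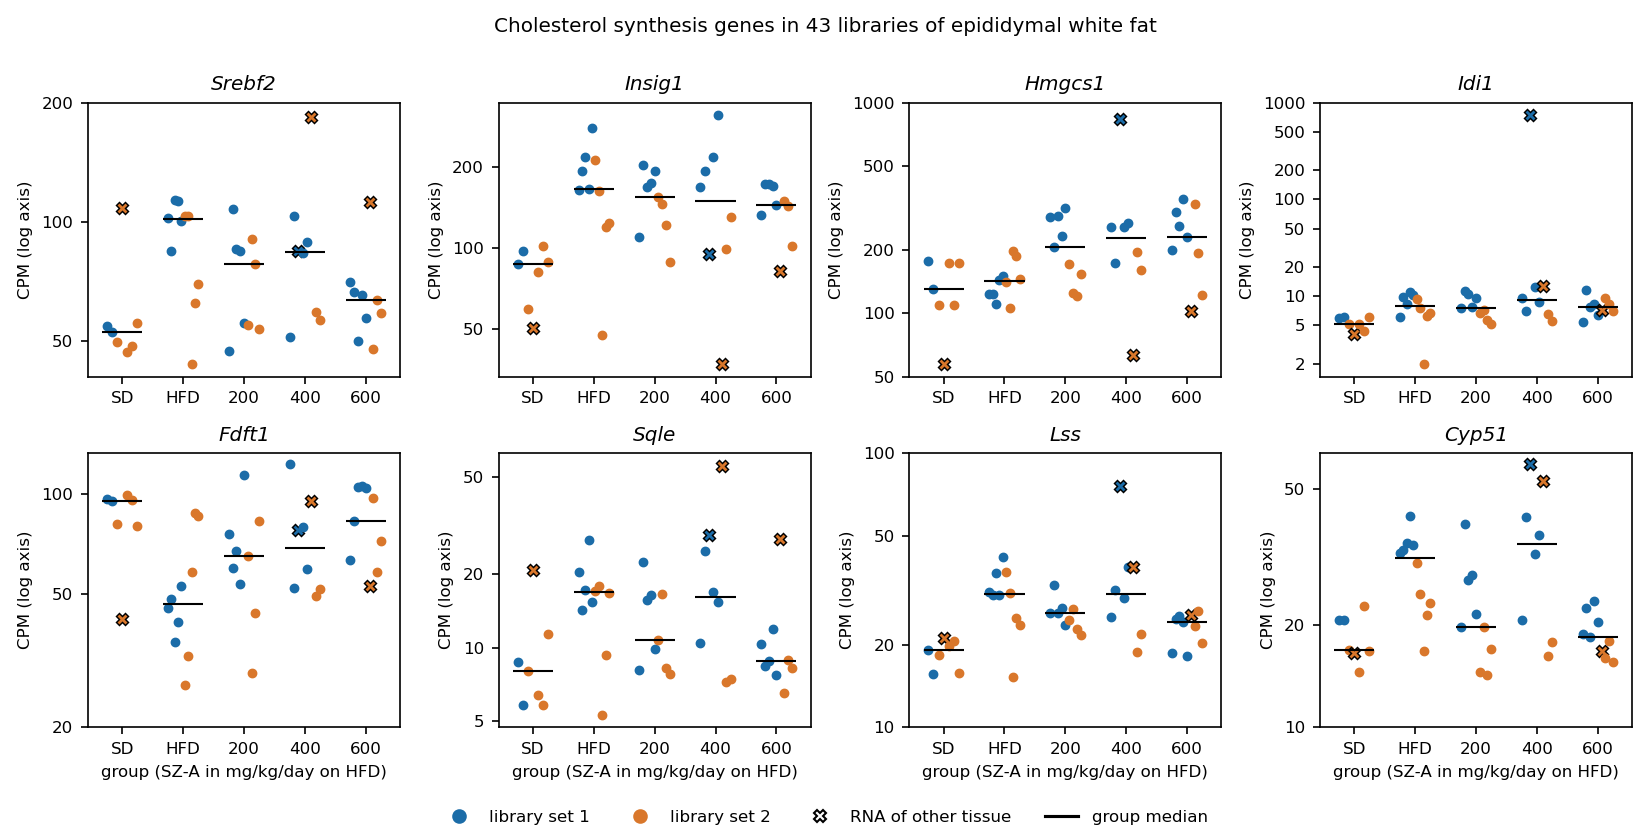
Level of each of the 8 genes in every library (CPM, log axis) by group, with lines at the group median; colours separate library sets 1 and 2, and crosses mark the 4 libraries with RNA of other tissues. Idi1 reached 745.3 CPM in a single SZ-A 400 library, while the other 42 libraries lay between 1.97 and 12.6 CPM.

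With the high-fat diet both regulators and 2 late sterol enzymes rose, and squalene synthase fell. Between HFD and SD, 4 of the 8 members rose (Insig1, Lss, Cyp51 and Srebf2) and 1 fell (Fdft1) at an adjusted p below 0.05 in edgeR's quasi-likelihood test, where 18.4% of the 20218 genes tested were called higher and 13.3% lower. The median log2 fold change of the 8 was 0.63, against -0.05 for all genes tested. Sqle, Idi1 and Hmgcs1 did not pass the test. Without the 4 libraries with other tissue RNA 5 rose, Sqle in addition, and 1 fell, with 20.7% of all genes called higher and 15.5% lower.

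Insig1 (ENSMUSG00000045294, chromosome 5, 28276361 to 28283660, plus strand) encodes the sterol-sensing brake on SREBP2. In SD its lowest, median and highest levels were 50.7, 87.5 and 101.8 CPM, and in HFD they were 47.8, 165.1 and 278.9 CPM. All HFD libraries except library 8, the lowest of both groups, lay above every SD library. The mean went from 81.1 ± 19.1 CPM (standard deviation, n = 7) to 168.2 ± 63.2 CPM (standard deviation, n = 10), a log2 fold change of 1.05 ± 0.28 (SE, adjusted p = 0.00414).

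Srebf2 (ENSMUSG00000022463, chromosome 15, 82031382 to 82089580, plus strand) had lowest, median and highest levels of 46.9, 52.6 and 108.1 CPM in SD and of 43.7, 101.4 and 113.4 CPM in HFD. The highest SD value was that of library 4, which carried ciliated epithelium RNA, and the next SD library stood at 55.5 CPM, below all HFD libraries but library 8. The log2 fold change was 0.59 ± 0.23 (SE, adjusted p = 0.0414) over all libraries. It was 0.79 ± 0.18 (SE, adjusted p = 0.00118) over the 39 libraries free of other tissue RNA. Leaving out any 1 of 12 libraries (SD 1, 2, 3, 5, 6 or 7, or HFD 1, 3, 4, 5, 6 or 7) moved the adjusted p to between 0.0581 and 0.0821, with the log2 fold change between 0.55 and 0.59, and in 8 other settings it lay between 0.0523 and 0.658.

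Neither member of the mevalonate arm passed the test with diet. Hmgcs1 (ENSMUSG00000093930, chromosome 13, 120151915 to 120169796, plus strand), which condenses acetyl-CoA units into HMG-CoA, had lowest, median and highest levels of 57.3, 129.9 and 176.5 CPM in SD and of 105.6, 142.3 and 197.8 CPM in HFD. The 2 groups overlapped over most of their range, and the log2 fold change was 0.10 (95% interval -0.50 to 0.71, adjusted p = 0.814). Idi1 (ENSMUSG00000058258, chromosome 13, 8935537 to 8942487, plus strand), which makes the isomer that starts isoprenoid assembly, lay at 4.08, 5.15 and 6.07 CPM in SD and at 1.97, 7.89 and 11.0 CPM in HFD. All HFD libraries except library 8 were above every SD library, yet the shared estimate of spread was wide and the log2 fold change of 0.55 (95% interval -0.74 to 1.84) did not pass the test (adjusted p = 0.531), while DESeq2 called it (0.51, adjusted p = 0.0466). Over the 39 libraries free of other tissue RNA it was 0.49 ± 0.23 (SE, adjusted p = 0.0895).

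Fdft1 (ENSMUSG00000021273, chromosome 14, 63382599 to 63417027, minus strand) makes squalene, the first step committed to sterols, and was the member that went the other way. Its lowest, median and highest levels were 42.0, 95.2 and 99.4 CPM in SD and 26.8, 46.8 and 87.4 CPM in HFD. The low SD value came from library 4, and the other 6 SD libraries lay at 79.9 CPM or above, as did HFD libraries 9 and 10. The mean went from 84.2 ± 20.2 CPM (standard deviation, n = 7) to 51.5 ± 20.7 CPM (standard deviation, n = 10), and Fdft1 fell by 0.71 on the log2 scale (SE 0.23, adjusted p = 0.0186). Fdft1 shares 774 of its 4227 exonic bases (18.3%) with Ctsb, a lysosomal protease gene on the opposite strand with a median of 3608 CPM. Ctsb went the opposite way with diet, rising by 2.04 on the log2 scale (SE 0.43, adjusted p = 0.000645), and at 600 mg/kg/day against HFD its log2 fold change was -0.80 (adjusted p = 0.151). The libraries kept strand, but the sources used here do not say whether the counting did, and the effect of reads from the shared stretch on Fdft1 counts was not tested.

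Sqle (ENSMUSG00000022351, chromosome 15, 59186926 to 59203041, plus strand), an oxygen-dependent enzyme and a control point of the pathway, lay at 5.82, 8.02 and 20.7 CPM in SD and at 5.33, 16.9 and 27.5 CPM in HFD. SD library 4 was again the high one, and the next SD library stood at 11.4 CPM, with 8 of the 10 HFD libraries above it. The log2 fold change was 0.75 ± 0.35 (SE, adjusted p = 0.0977) over all libraries and 1.05 ± 0.28 (SE, adjusted p = 0.00348) over the 39. Leaving out SD library 4 alone gave 1.03 (adjusted p = 0.0279).

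Lss (ENSMUSG00000033105, chromosome 10, 76367422 to 76392972, plus strand), which closes the sterol rings, lay at 15.6, 19.1 and 21.2 CPM in SD and at 15.2, 30.6 and 41.9 CPM in HFD. Cyp51 (ENSMUSG00000001467, chromosome 5, 4131145 to 4154746, minus strand), which removes the first methyl group of lanosterol, lay at 14.5, 16.8 and 22.7 CPM in SD and at 16.7, 31.4 and 41.8 CPM in HFD. For Lss 9 of 10 HFD libraries were above every SD library, and for Cyp51 8 of 10, with library 8 low in both genes. The log2 fold changes were 0.70 ± 0.18 (SE, adjusted p = 0.00415) for Lss and 0.67 ± 0.22 (SE, adjusted p = 0.0169) for Cyp51. The call of Cyp51 was lost in 3 other settings (adjusted p 0.055 to 0.359).

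HFD library 8 was the lowest of its group for 6 of the 8 members, all but Hmgcs1 and Fdft1, and it also stood apart in cell markers. Its 12 macrophage markers summed to 905 CPM, against 1154 and 4337 CPM in HFD libraries 10 and 9 and 8848 to 16547 CPM in the 7 other HFD libraries; the SD libraries lay between 497 and 1504 CPM. Of the 12 macrophage markers, 11 rose with the diet and 0 fell, with a median log2 fold change of 3.14. Of the 12 adipocyte markers 1 rose and 2 fell, with a median of -0.56. Without the 4 libraries with other tissue RNA 1 adipocyte marker rose and 6 fell, with a median of -0.73. The part of macrophage content in the members' differences was not tested.

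Per length, the members differed widely in level. As FPKM, fragments per kilobase of gene scaled to library depth, the group means in SD were 29.5 for Hmgcs1, 26.8 for Insig1 and 20.9 for Fdft1, followed by 8.47 for Srebf2 and 4.25 for Cyp51. Sqle at 1.77, Lss at 1.76 and Idi1 at 1.53 FPKM were the lowest. In HFD, Insig1 led with 53.5 FPKM, ahead of Hmgcs1 with 30.7 and Fdft1 with 12.4, the last then level with Srebf2 at 12.3.

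The other genes of the pathway moved unevenly with diet. Of 16 further enzymes 6 rose and 2 fell with the diet, with a median log2 fold change of 0.53. Among them Dhcr7, the last reductase of the pathway, rose by 2.04 on the log2 scale (adjusted p = 0.000122), and Msmo1, a sterol demethylase that acts after Cyp51, rose by 1.21. Nsdhl and Ebp, which act between Msmo1 and Dhcr7, rose by 0.83 and 0.74, and Mvd, which makes isopentenyl diphosphate, by 1.12. Ggps1, which leads isoprenoids away to protein prenylation, fell by 0.45, and Lbr, a sterol reductase of the nuclear envelope, fell by 0.41. Without the 4 libraries with other tissue RNA 9 of the 16 rose and 1 fell, with a median of 0.62, and Lbr was not called. In that fit 20.7% of all genes were called higher and 15.5% lower.

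Counts in the other lists are to be read against the 31.7% of all genes tested that were called in either direction with the diet. Of 14 genes that control SREBP activity, Srebf2 and Insig1 counted, 3 rose and 1 fell, a share near that of all genes. Aup1, which takes part in protein breakdown at the endoplasmic reticulum, rose by 0.55, and Srebf1, which encodes the fatty acid branch of the factor, fell by 0.45 (adjusted p = 0.0472). Of 15 genes of cholesterol uptake and transport 6 rose and 1 fell. Lipa, the lysosomal cholesteryl ester hydrolase, rose by 3.09 and Lrp1, a lipoprotein receptor of macrophages and adipocytes, by 1.13, while Mylip, a sterol-regulated ubiquitin ligase, fell by 0.74. Of 15 genes of efflux and storage 3 rose: Nceh1 by 3.51 and Soat1 by 2.93, which cleave and form cholesteryl esters, and Pltp, a lipid transfer protein, by 2.55. Of 12 fatty acid synthesis genes 1 rose, the desaturase Scd2 by 2.00, and 2 fell, the carboxylases Acaca by 1.37 and Acacb by 1.98.

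**Figure D2:**
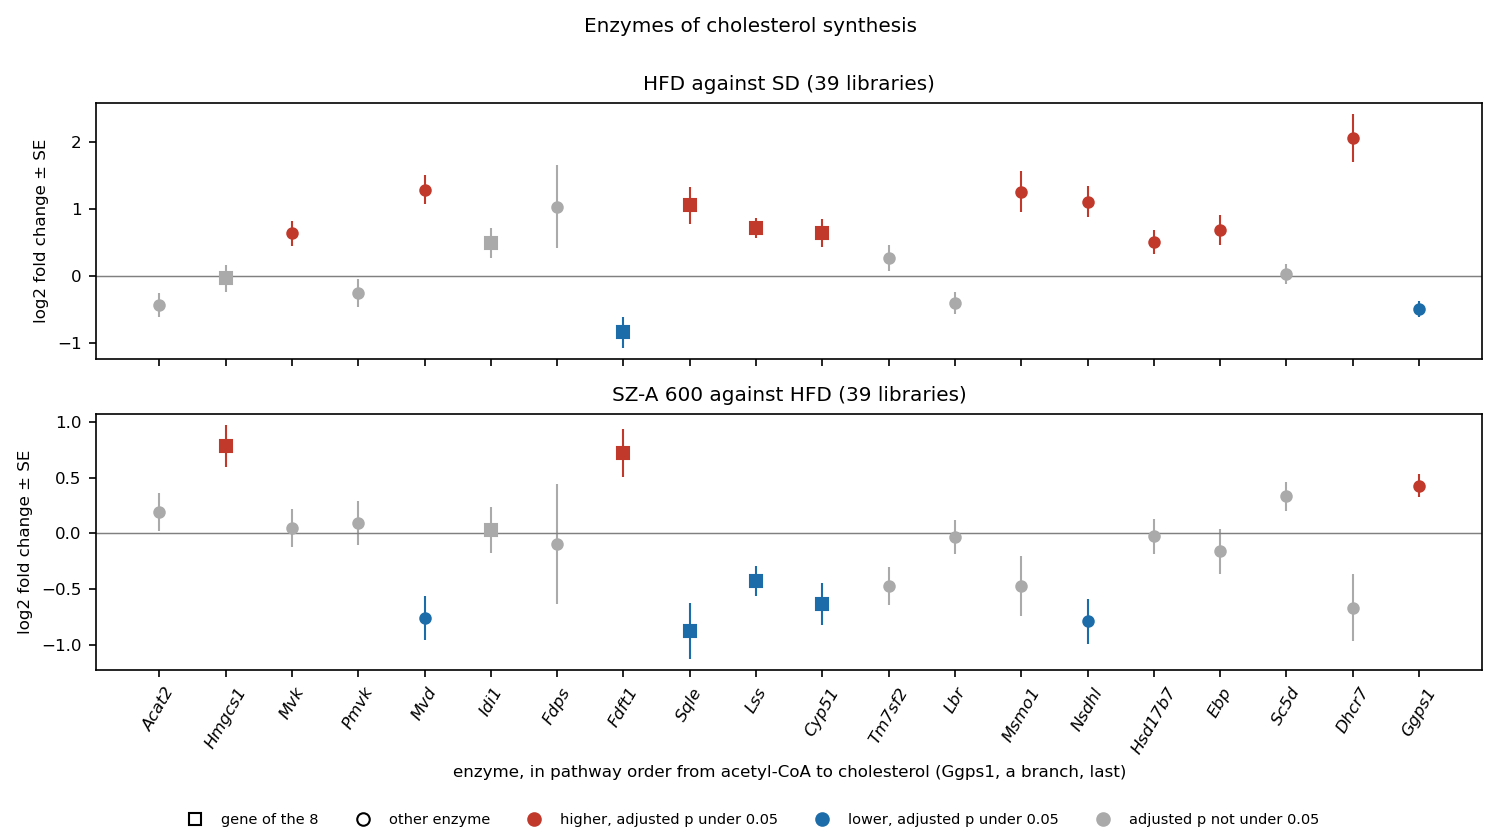
Log2 fold change with SE of 20 enzymes of the pathway in pathway order over the 39 libraries without RNA of other tissues, for HFD against SD (upper panel) and SZ-A 600 against HFD (lower panel), with squares for members, red for called higher and blue for called lower. Of the enzymes drawn, 10 were called higher and 2 lower with the diet, and 3 higher and 5 lower at 600 mg/kg/day.

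At 200 mg/kg/day 0 of 8 members were called against HFD by edgeR's quasi-likelihood test, and 0.00989% of all genes tested were (2 of 20218). At an unadjusted p of 0.05 the count was also 0 of 8, with 0 called by DESeq2 and 1 by limma-voom. Hmgcs1 had the largest log2 fold change of the 8, 0.57 ± 0.29 (SE, adjusted p = 0.732), with lowest, median and highest levels of 120.3, 206.1 and 318 CPM. Its groups overlapped, 5 of the 9 treated libraries standing above the highest HFD library at 197.8 CPM. Cyp51 followed with -0.39 ± 0.20 (SE, adjusted p = 0.732) and Fdft1 with 0.35 ± 0.22 (SE, adjusted p = 0.794).

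At 400 mg/kg/day Idi1 was the one member called, with 2.46% of all genes called higher, and that call rested on 1 library. Idi1 stood at 745.3 CPM in library 3 and between 5.48 and 12.6 CPM in the 7 others, a range that overlaps HFD (1.97 to 11.0 CPM). The log2 fold change was 3.71 ± 0.66 (SE, adjusted p = 0.00132) with library 3 and 0.21 (adjusted p = 0.726) without it. With library 3 kept, Idi1 was not called by DESeq2 (0.18, adjusted p = 0.674) or limma-voom (0.46, adjusted p = 0.403). Library 3 also held the highest SZ-A 400 values of Hmgcs1 (835.1 CPM), Lss (75.9 CPM) and Cyp51 (59.5 CPM). It was the library with squamous and sebaceous RNA, with the keratin gene Krt14 at 675 CPM; the part of that tissue in these levels was not tested. Without the 4 libraries with other tissue RNA 0 members were called at this dose (1 at an unadjusted p of 0.05, and 0.0549% of all genes in either direction by the adjusted p), Hmgcs1 being at 0.59 ± 0.20 (SE, adjusted p = 0.377) and Idi1 at 0.08 ± 0.22 (SE, adjusted p = 0.933).

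At 600 mg/kg/day Cyp51 fell and Fdft1 rose, while 6.47% of all genes were called lower and 5.12% higher. Cyp51 lay at 15.5, 18.4 and 23.5 CPM (lowest, median, highest) against 16.7, 31.4 and 41.8 CPM in HFD. The treated libraries sat at the bottom of the HFD range, 3 of 9 below all HFD libraries, and Cyp51 fell by 0.64 on the log2 scale (SE 0.20, adjusted p = 0.035). Fdft1 lay at 52.8, 82.6 and 105.6 CPM against 26.8, 46.8 and 87.4 CPM in HFD, with 4 of 9 above all HFD libraries. It rose by 0.68 (SE 0.22, adjusted p = 0.0398). Both adjusted p-values were near the threshold. Leaving out any 1 of 9 libraries (HFD 1 to 5, or SZ-A 600 3, 6, 7 or 9) moved that of Cyp51 to between 0.0547 and 0.0747, and any 1 of 12 (HFD 1 to 7, or SZ-A 600 2, 3, 4, 5 or 7) that of Fdft1 to between 0.0523 and 0.0834. Cyp51 also lost its call in 5 other settings (adjusted p 0.0516 to 0.59) and Fdft1 in 3 (adjusted p 0.058 to 0.83), without a filter on low genes and in set 2 among them.

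The 6 other members at this dose did not pass the test over all libraries. Hmgcs1 lay at 102.1, 229.4 and 350.3 CPM, with 6 of 9 libraries above all HFD libraries and library 6, which carried ciliated epithelium RNA, below them all. Its log2 fold change was 0.70 ± 0.29 (SE, adjusted p = 0.096). Sqle stood at 6.54, 8.80 and 27.8 CPM and Srebf2 at 47.8, 63.7 and 112.2 CPM, and in both genes the highest value was that of library 6. Their log2 fold changes were -0.55 ± 0.33 (SE, adjusted p = 0.258) and -0.45 ± 0.21 (SE, adjusted p = 0.147). Lss was at -0.39 ± 0.17 (SE, adjusted p = 0.117), Insig1 at -0.26 ± 0.25 (SE, adjusted p = 0.521) and Idi1 at 0.04 ± 0.60 (SE, adjusted p = 0.977).

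Over the 39 libraries free of other tissue RNA, 6 of the 8 members were called at 600 mg/kg/day, with 3.86% of all genes called higher and 7.49% lower. Hmgcs1 rose by 0.78 (SE 0.19, adjusted p = 0.0091), from 142.8 ± 30.2 CPM (standard deviation, n = 10) to 248.6 ± 77.5 CPM (standard deviation, n = 8), and Fdft1 rose by 0.73 (SE 0.22, adjusted p = 0.0272). Srebf2 fell by 0.60 (SE 0.17, adjusted p = 0.0206), from 89.6 ± 23.7 CPM (standard deviation, n = 10) to 60.0 ± 8.05 CPM (standard deviation, n = 8). The enzymes Sqle, Lss and Cyp51 fell by 0.88, 0.43 and 0.63 (adjusted p = 0.0224, 0.0394 and 0.0291). The 2 genes called higher thus encode early steps of the mevalonate and sterol arms, and the 4 called lower are the factor itself and 3 enzymes after squalene. Insig1 (log2 fold change -0.20, adjusted p = 0.581) and Idi1 (0.03, adjusted p = 0.942) did not pass.

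**Figure D3:**
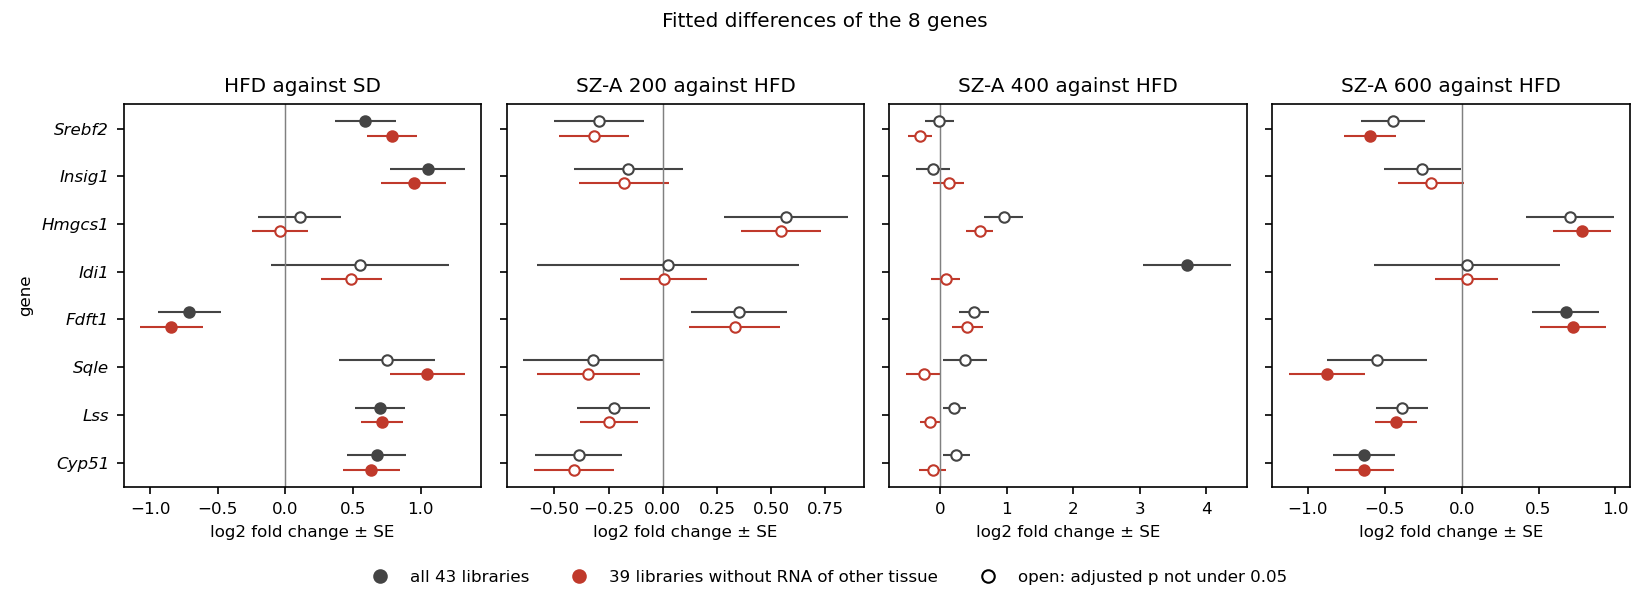
Log2 fold change with SE of the 8 genes for the diet and for each SZ-A dose against HFD, over all 43 libraries and over the 39 without RNA of other tissues; filled points passed an adjusted p of 0.05. Idi1 at 400 mg/kg/day moves from 3.71 to 0.08 between the 2 sets of libraries.

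Among the other pathway genes at 600 mg/kg/day, Ggps1 rose by 0.42 (SE 0.10, adjusted p = 0.0115) and Srebf1 by 0.54 (adjusted p = 0.0294) over all libraries. Npc1, the lysosomal cholesterol exporter, fell by 0.91, Lrp1 by 0.96, and Erlin1, which takes part in protein breakdown at the endoplasmic reticulum, by 0.39. Without the 4 libraries with other tissue RNA, 3 of the 22 enzymes rose and 6 fell, with a median log2 fold change of -0.13 against -0.01 for all genes tested. Among those that are not members, Ggps1 rose by 0.43, and Mvd and Nsdhl fell by 0.76 and 0.79.

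Over the 4 high-fat groups a linear trend with dose was called for Fdft1, with 6.82% of all genes called higher. Its slope was 0.22 ± 0.07 (SE, adjusted p = 0.0321) on the log2 scale per 200 mg/kg/day, and leaving out any 1 of 10 libraries (HFD 1, 2, 3, 4, 6 or 7, or SZ-A 600 3, 4, 5 or 7) moved the adjusted p to between 0.0507 and 0.0647. The slope of Hmgcs1 was 0.25 ± 0.09 (SE, adjusted p = 0.0571). Over the high-fat libraries free of other tissue RNA, Hmgcs1 (0.24 ± 0.06, adjusted p = 0.0126) and Fdft1 (0.23 ± 0.07, adjusted p = 0.0323) had rising slopes. Sqle (-0.25 ± 0.08, adjusted p = 0.0363) and Srebf2 (-0.18 ± 0.05, adjusted p = 0.0298) had falling ones. In that set 3.55% of all genes had a rising and 7% a falling slope.

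Set against SD, Insig1 was the member called higher at 200 mg/kg/day (log2 fold change 0.89 ± 0.28, SE, adjusted p = 0.0274), where 10.8% of all genes were. At 400 mg/kg/day 6 of 8 were called higher than SD (8.29% of all genes), with Idi1 at 4.26, Sqle at 1.12, Hmgcs1 at 1.06, Insig1 at 0.94, Cyp51 at 0.92 and Lss at 0.91. At 600 mg/kg/day 0 of 8 were called against SD (2 at an unadjusted p of 0.05, Hmgcs1 and Insig1), where 3.36% of all genes were called in either direction. When the 5 groups were ordered by mean level for each member, 1 of the 32 pairs of neighbours differed by the test, Idi1 at 400 above 600 mg/kg/day (0.509% of all genes were called lower at the higher dose), which rests on library 3. Idi1 was also called higher at 400 than at 200 mg/kg/day, where 1.03% of all genes were. Between 600 and 400 mg/kg/day, not neighbours in its order, Cyp51 was lower by a log2 fold change of -0.88 (adjusted p = 0.0364).

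These calls also moved when the 4 libraries with other tissue RNA were left out. At 400 mg/kg/day 2 of 8 were then called higher than SD (10.1% of all genes), Insig1 by 1.08 (adjusted p = 0.00582) and Lss by 0.57 (adjusted p = 0.02), while Hmgcs1, Sqle, Idi1 and Cyp51 lost their calls (adjusted p between 0.0669 and 0.119). At 200 mg/kg/day Insig1 (0.77, adjusted p = 0.0223) and Lss (0.47, adjusted p = 0.029) were called higher than SD (12.5% of all genes). At 600 mg/kg/day Insig1 (0.75, adjusted p = 0.046) and Hmgcs1 (0.74, adjusted p = 0.0268) were (5.65% of all genes). Between doses 0 members were called (0% of all genes between 600 and 400 mg/kg/day, with Sqle and Cyp51 under an unadjusted p of 0.05), Cyp51 being at -0.52 (SE 0.21) between 600 and 400 mg/kg/day. The number of calls against SD and between doses went from 10 over all libraries to 6 without SD library 3 alone and to 6 without SZ-A 400 library 3 alone.

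The results differed between the 2 sets of libraries in what was called, though the difference itself was not called for any member. In set 1 without other tissue RNA the SZ-A 600 and HFD groups, 5 libraries each, did not overlap for 6 members, 2 higher and 4 lower. Among all 19967 genes tested there, 11.9% did not overlap with the treated group higher and 14.1% with it lower, and 18.8% were called higher and 15.1% lower by the test. Hmgcs1 lay between 199.6 and 350.3 CPM at 600 mg/kg/day and between 110.2 and 151.0 CPM in HFD, and Fdft1 between 63.1 and 105.6 CPM against 36.0 to 52.7 CPM. Srebf2 lay between 50.02 and 70.6 CPM against 84.5 to 113.4 CPM, and Cyp51 between 18.4 and 23.5 CPM against 32.5 to 41.8 CPM, with Sqle and Lss also lower in every treated library. In set 2 (3 and 5 libraries) all 8 members overlapped and 0 of 8 were called, as were 0% of all genes; 1 member, Cyp51, was under an unadjusted p of 0.05. There the log2 fold change of Hmgcs1 was 0.47 (adjusted p = 0.734) and that of Cyp51 -0.51 (adjusted p = 0.59).

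For the diet, set 1 without other tissue RNA gave 5 members higher (Sqle by 1.31, Insig1 by 1.08, Lss by 0.91, Srebf2 by 0.87 and Cyp51 by 0.72) and Fdft1 lower by a log2 fold change of -1.16, with 2 SD libraries and with 19.3% of all genes called higher and 20.6% lower. Set 2 gave 0 of 8 (5 at an unadjusted p of 0.05) where 9.66% of all genes were called, with Srebf2 at 0.60 (adjusted p = 0.0993), Lss at 0.49 (adjusted p = 0.118) and Insig1 at 0.67 (adjusted p = 0.178). At 200 mg/kg/day Hmgcs1 was called in set 1 (1.06 ± 0.17, SE, adjusted p = 0.0164, where 3.82% of all genes were called higher) and lay at -0.14 ± 0.26 (SE) in set 2. The test of that difference between sets gave p = 0.000538 and an adjusted p of 0.18 by edgeR's quasi-likelihood test. Over the 4 comparisons 0 members passed it. The HFD libraries of the sets also differed in macrophage markers, whose sum lay between 11930 and 16547 CPM in set 1 and between 905 and 9501 CPM in set 2.

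The members followed the cell markers of a library in opposite directions. Over the 33 high-fat libraries without other tissue RNA, Srebf2 correlated with the mean of the 12 macrophage markers at Pearson r = 0.95 in set 1 (n = 19, rho = 0.93) and at 0.88 in set 2 (n = 14, rho = 0.81), and at 0.94 and 0.82 without the 2 libraries farthest from the median. The permutation p adjusted over 32 relations was 4.57e-05 and 0.000116. Fdft1 went the other way, with r of -0.85 (rho = -0.92) and -0.73 (rho = -0.69), and permutation adjusted p of 7.11e-05 and 0.00657. Without the 2 farthest libraries its r was -0.90 and -0.53. Hmgcs1 was at -0.67 and -0.55 (permutation adjusted p = 0.0032 and 0.05). Sqle was at 0.85 and 0.67, Cyp51 at 0.85 and 0.46, Lss at 0.62 and 0.78 and Insig1 at 0.51 and 0.66, while Idi1 was at 0.12 and 0.55. Of these, Cyp51 in set 2 (0.101) and Idi1 in set 1 (0.639) had a permutation adjusted p above 0.05. Without the 2 farthest libraries Cyp51 stood at 0.24 and Sqle at 0.48 in set 2. For Insig1 rho was 0.43 and 0.47 (permutation adjusted p = 0.0955 and 0.119), and for Idi1 in set 2 it was 0.45 (permutation adjusted p = 0.123). With the mean of the adipocyte markers the signs turned, Fdft1 being at 0.93 and 0.85, Hmgcs1 at 0.82 and 0.65 and Srebf2 at -0.95 and -0.94. The libraries come from groups that differ in both measures, and the 2 marker means are not independent of each other.

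The marker sums moved with the groups as well. The median macrophage sum was 595 CPM in SD (497 to 1504), 10716 CPM in HFD (905 to 16547), 5510 CPM at 200 mg/kg/day (1564 to 13361), 1865 CPM at 400 mg/kg/day (308 to 15886) and 2847 CPM at 600 mg/kg/day (545 to 8696). The lowest sums at the last 2 doses came from libraries with other tissue RNA. SZ-A 400 libraries 6 and 3 stood at 308 and 526 CPM, the others there at 1446 CPM or more, and SZ-A 600 library 6 at 545 CPM. Over all libraries 0 of the 12 macrophage markers rose and 6 fell at 600 mg/kg/day, with a median log2 fold change of -1.35. Without the 4 libraries with other tissue RNA that median was -1.23 at 600 mg/kg/day and -0.60 at 400 mg/kg/day. Of the 12 adipocyte markers 1 rose and 0 fell over all libraries at 600 mg/kg/day, with a median of 0.59. Without those 4 libraries 4 adipocyte markers rose and 0 fell, with a median of 0.68, where 3.86% of all genes were called higher. The 7 markers of steroid-making cells, another cell type rich in this pathway, summed to between 3.12 and 26.7 CPM. Of these 5 passed the filter on low genes, Cyp11a1 among them, while Hsd3b1 was at 0 in all 43 libraries. The part of cell content in the dose differences was not tested.

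**Figure D4:**
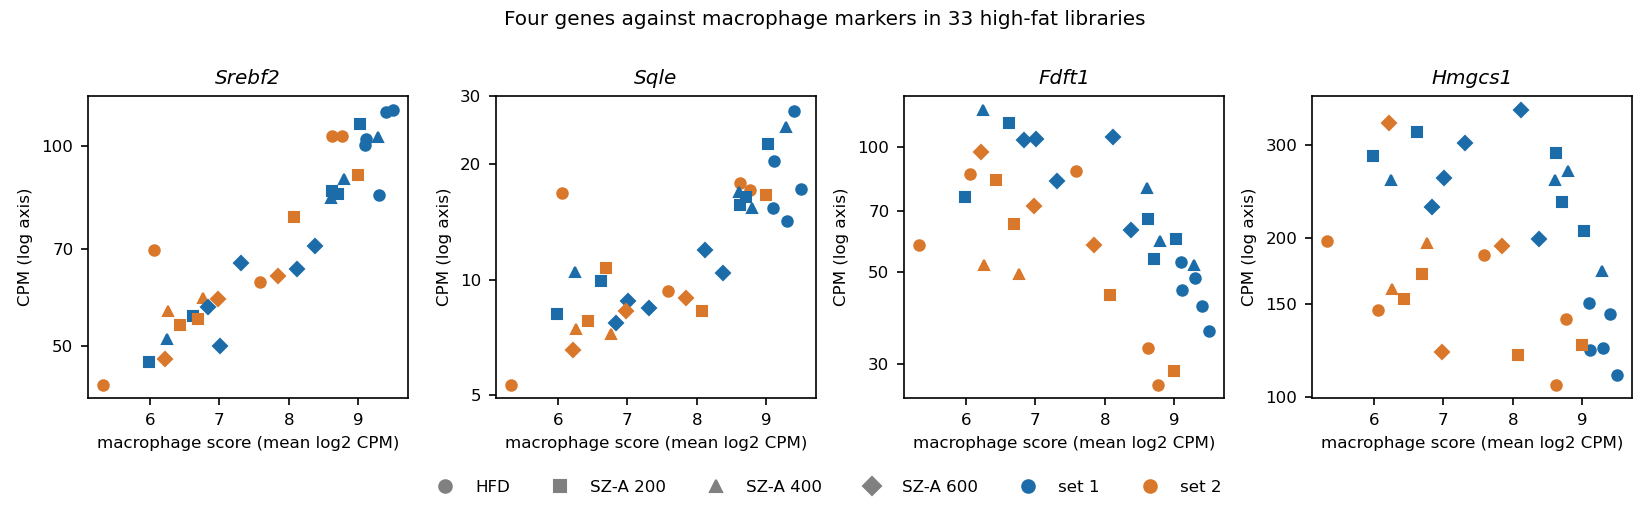
Level of Srebf2, Sqle, Fdft1 and Hmgcs1 (CPM, log axis) against the mean log2 CPM of 12 macrophage markers in the 33 high-fat libraries without RNA of other tissues, with symbols for groups and colours for library sets. Srebf2 rises along the axis (r = 0.95 in set 1) and Fdft1 falls (r = -0.85 in set 1).

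Among themselves the members fell into pairs that moved together over the 39 libraries without other tissue RNA. Pearson r of log2 CPM was 0.90 for Sqle with Srebf2, 0.85 for Lss with Insig1, 0.82 for Sqle with Cyp51, 0.81 for Srebf2 with Cyp51 and 0.80 for Idi1 with Insig1. Fdft1 stood at -0.73 with Srebf2 and at 0.52 with Hmgcs1, and Hmgcs1 with Srebf2 at -0.27. These values describe libraries that share diet groups and cell content.

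Among the tested genes whose pattern over all 43 libraries was most like the mean of the 8 members were Tmem97 (r = 0.89), which encodes a sterol-responsive membrane protein, Endod1 (0.86), Msmo1 (0.86) and Psph (0.86), a serine synthesis enzyme. Gm3571 and Med22 (both 0.83) and Mvd, Sh3bp5l and Tmbim6 (all 0.82) followed. After the mean of each group and library set was subtracted, Tmem97 (0.80) was among the first, with Plch2, Far1 and Acoxl (all 0.79) and Msmo1, Psph, Ipmk and Smarcc1 (all 0.76). Over the 39 libraries without other tissue RNA the leading genes were Degs1 (0.93), Cyb5b (0.93) and Dhrs1 (0.92), and after the same subtraction Acoxl and Smarcc1 (both 0.76) were near the top. The first order rests in part on SZ-A 400 library 3.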

How the data were processed

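Poly(A)-selected, strand-specific libraries were sequenced as 150 bp pairs, per the labels' protocols. The authors deposited gene counts and FPKM per library. The submitters' processing notes name mm10, while the coordinates in the files differ from the mm10 annotation (GENCODE M21) for all 8 members and are printed as the files give them. No aligner, counter or strand setting is named in the sources used here. The deposited FPKM were used for levels between genes and, as log2(FPKM + 1), for an alternative test with limma 3.58.1.

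Counts were tested with edgeR 4.0.16 (R 4.3.3): quasi-likelihood test, TMM factors, low genes removed by its default filter, 1 fit of all 43 libraries with group as the only term, Benjamini-Hochberg adjustment over 20218 genes, called at an adjusted p under 0.05. The trend is the linear contrast over HFD and the 3 doses. SE is the log2 fold change over the root of the F statistic, and 95% intervals are 1.96 SE to each side. CPM use the TMM-scaled total, and log2 CPM a prior count of 2. Correlations with cell markers used 100000 permutations, whose smallest possible p is 1e-05. The fit was tested on simulated counts for HFD against SD over 20218 genes: 32 of 99 genes changed by a log2 of 1 and 59 of 96 changed by a log2 of 2 were called, and 3 of 19693 unchanged genes.

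The members and the gene lists were chosen with earlier results of these data known. Named in addition were Srebf1, from each list of pathway genes up to 4 called genes per direction by smallest p, and the 10 genes most like the members; some genes these rules name are not reported here. Ctsb was named for its overlap with Fdft1, and library 3's Krt14 for its tissue. Alternatives were DESeq2 1.42.0 (its test and its size factors), upper-quartile factors, limma-voom, other filters, a replicate block, each library left out, each library set and the 4 libraries with other tissue RNA left out. The within-set fits without those 4 libraries were chosen after seeing the data. Figures were drawn with matplotlib 3.10.9 in Python 3.11.15.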

Additional observations from a re-analysis of the deposited data

Results flagged for a closer look

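In 11 of 40 sets (a member in a group) 1 library stood apart from its group by Dixon's test at 95%, which flags about 1 in 20 such groups by chance. In 10 of the 11 it was one of the 4 libraries with other tissue RNA. SZ-A 400 library 3 was high for Idi1 (745.3 CPM, next library 12.6), Hmgcs1 (835.1 CPM, next 268.3) and Lss (75.93 CPM, next 38.5). SD library 4 was high for Srebf2 (108.1 CPM, next 55.5) and Sqle (20.68 CPM, next 11.4) and low for Fdft1 (41.99 CPM, next 79.9). SZ-A 400 library 6 was high for Srebf2 (183.6 CPM, next 103.4) and Sqle (55.37 CPM, next 28.8), and SZ-A 600 library 6 for Srebf2 (112.2 CPM, next 70.6) and Sqle (27.8 CPM, next 11.9). The other was Lss in SZ-A 200 library 2 (33.02 CPM, next 27.3).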

How the results depend on the processing

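Counts below are members called of 8, with the share of all genes called in either direction beside some of them. Those shares moved between settings as well. For the diet (5), set 2 gave 0 with or without the 4 libraries with other tissue RNA. In set 2 1.59% of all genes were called with them and 9.66% without, against 31.7% in the main fit. DESeq2 gave 5 with Idi1 called (0.51, adjusted p = 0.0466) and Srebf2 not (0.54, adjusted p = 0.0523), and voom 6 with Sqle (1.22, adjusted p = 6.17e-06). At 200 mg/kg/day (0), limma-voom and set 1 without those libraries each gave 1. In that set 1 fit 4.59% of all genes were called, against 0.00989% in the main fit. At 400 mg/kg/day (1, Idi1), DESeq2 gave 1 that was another gene, Hmgcs1 (0.96, adjusted p = 0.0356), voom gave 2, Hmgcs1 and Fdft1, without Idi1, set 1 gave 3, and 0 came from FPKM with a pseudocount of 1 or 0.1, only the groups compared, the replicate block, set 2, leaving out the 4 libraries (with or without a set term) and each set without them, where Idi1 had a log2 fold change of -0.0915 in set 2. At 600 mg/kg/day (2), voom, leaving out the 4 libraries with or without a set term, and set 1 without them gave 6, set 1 gave 5, FPKM 1 (both pseudocounts), and no filter and set 2 (with or without the 4) 0. Of all genes 11.6% were called at this dose in the main fit and 11.4% without the 4 libraries. The share was 24.9% with the set term in addition, 29.6% in set 1 and 33.9% in set 1 without them. For the trend (1), upper-quartile factors, DESeq2 and the stricter filter gave 2, set 1 and leaving out the 4 libraries 4, voom, the set term and set 1 without them 6, and set 2 (with or without) 0. The share of all genes with a called trend was 14.7% in the main fit and 10.5% without the 4 libraries. It was 23.9% with the set term in addition, 27.4% in set 1 and 28.8% in set 1 without them. For SZ-A against SD and between doses (10 calls in all), voom gave 16, FPKM 2 and 3 (pseudocounts 1 and 0.1), only the groups compared and the set term 5, set 1 3, leaving out the 4 libraries 6, and set 2 0 (with or without). Leaving out 1 library gave 4 to 6 for the diet, 0 to 0 at 200, 0 to 2 at 400, 0 to 4 at 600 mg/kg/day, 0 to 2 for the trend and 6 to 11 for the last; the libraries that change a call are named above. Hmgcs1 gained the call without 1 library at 400 mg/kg/day (4 libraries), at 600 mg/kg/day (SZ-A 400 library 3) and for the trend (8), and Lss at 600 mg/kg/day (2). Upper-quartile factors moved the median log2 fold change of all genes for the diet by -0.11, and no member called for the diet changed direction. The replicate numbers did not pair the libraries: for the diet 7 same-numbered pairs correlated at -0.19 to 0.32, 3 of them over 0.1, and for the doses 6 of 9, 6 of 8 and 7 of 9 pairs were over 0.1 (medians 0.26, 0.23 and 0.19, lowest -0.20, -0.24 and -0.36), short of every pair. With the replicate block Sqle was called for the diet (0.89, adjusted p = 0.019) and Idi1 lost its call at 400 mg/kg/day (1.39, adjusted p = 0.164). The cause of these changes was not tested. The lowest count of a member in any library was 65, and the effect of depth on the calls was not tested.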
